A study of Mus musculus with 12 samples.

Results

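The genes described here encode fibroblast growth factor (FGF) ligands and their receptors: 7 ligand genes (Fgf2, Fgf4, Fgf5, Fgf7, Fgf10, Fgf15 and Fgf17) and 3 receptor genes (Fgfr1, Fgfr2 and Fgfr3). These 10 genes were taken by symbol from the 19938 genes that the arrays measured. Each had 1 probe set, and all 10 passed the filter on dim genes that left 13044 genes for testing. The filter asked for a log2 signal above the array median of 6.31 on at least 1 array. Fgf5, Fgf15 and Fgf17 passed on 1 array each and Fgfr3 on 3, so these genes were measured mostly at dim signal.

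The study followed mouse embryonic fibroblasts (MEF) as they were converted to pluripotent cells by doxycycline (DOX), which switches on an inducible transgene for the OSKM factors (Oct4, Sox2, Klf4 and Myc). It did so in cells with different doses of Mbd3, which belongs to the NuRD complex that remodels and deacetylates chromatin. Total RNA was measured on 12 Affymetrix arrays, with 1 array for each genotype and stage. The MBD3flox/- cells (flox/-) carried inducible OSKM and were measured as induced pluripotent stem cells (iPSC), at days 4 and 8 of DOX, and as MEF before DOX. The MBD3-/- cells (-/-) were embryonic stem cells (ESC) and MEF, and their labels name no OSKM transgene. The MBD3+/+ cells (WT) with inducible OSKM were measured as iPSC, at days 4, 8 and 11 of DOX, and as MEF before DOX. The WT ESC were of the V6.5 line and carried no OSKM by their label. The growth protocol given for every sample was 2i/LIF medium on irradiated DR4 MEF feeders, so feeder fibroblast RNA can be in each sample. The WT day 8 and WT ESC arrays came from an earlier series, and the source label of the WT day 8 array says 4 days, while its title and stage label say 8.

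FGFs are secreted proteins that bind receptor tyrosine kinases together with heparan sulfate chains, and the activated receptors signal through docking proteins to a cascade of kinases. This cascade then induces its own inhibitors, among them the Sprouty proteins and dual-specificity phosphatases. In mouse ESC, FGF4 is made by the cells themselves and its signal favours exit from naive pluripotency, which the inhibitors in 2i medium block. In connective tissue, FGF7 and FGF10 are made by mesenchymal cells and act on epithelia through the epithelial splice form of FGFR2.

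The labels were checked against cell markers and Mbd3. The mean log2 signal of 8 pluripotency genes was 11.75 to 11.95 on the 4 pluripotent arrays, 6.40 (WT day 8) to 11.94 (flox/- day 8) on the 5 DOX arrays and 4.95 to 5.16 on the 3 MEF arrays. This list holds Sox2 and Pou5f1 (the gene for Oct4), which are OSKM factors, so the DOX means can include transgene signal, which was not tested. On the WT day 8 array Pou5f1 was 12.63, while Nanog was 5.59 and Sox2 6.41. The mean of 9 fibroblast genes was 6.24 to 9.36 on pluripotent arrays, 6.17 to 10.89 on DOX arrays and 11.53 to 11.78 on MEF arrays. All 9 fibroblast genes lay above the array median on each MEF array, and 5 to 9 of them did on pluripotent arrays. A list of 6 macrophage genes reached 7.29 to 10.11 on MEF arrays, and 4.88 to 6.80 on pluripotent arrays. Mbd3 had a log2 signal of 6.73 in -/- ESC and 8.15 in -/- MEF, of 8.73 to 9.11 on the 4 flox/- arrays and of 8.995 to 9.67 on the 6 WT arrays. The -/- MEF value was the lowest of the MEF but well above the array median, so the array does not show a null there. Where the probes lie relative to the deletion is not given in the sources used here, and -/- MEF below means the sample with that label.

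The promoters of the 4 members with the largest changes, Fgf4, Fgf2, Fgf7 and Fgfr2, are shown because these genes form the exchange that the values describe. Each window holds the 250 bases before a transcript start, read 5′ to 3′ on the strand of the gene, from RefSeq on GRCm38.p6. For Fgf4, Fgf7 and Fgfr2 this start is the 5′ end of the annotated gene, and for Fgf2 it lies 176 bases inside it. Capitals mark matches to the motifs searched on both strands. The windows are chr7:144861136-144861385 on the plus strand for Fgf4, chr3:37348403-37348652 on the plus strand for Fgf2, chr2:126034408-126034657 on the plus strand for Fgf7 and chr7:130266809-130267058 on the minus strand for Fgfr2.
Fgf4: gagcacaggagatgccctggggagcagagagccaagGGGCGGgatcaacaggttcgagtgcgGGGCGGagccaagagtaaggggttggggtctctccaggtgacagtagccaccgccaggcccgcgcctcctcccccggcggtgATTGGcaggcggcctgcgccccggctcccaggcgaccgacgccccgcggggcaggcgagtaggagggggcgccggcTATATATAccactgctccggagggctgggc
Fgf2: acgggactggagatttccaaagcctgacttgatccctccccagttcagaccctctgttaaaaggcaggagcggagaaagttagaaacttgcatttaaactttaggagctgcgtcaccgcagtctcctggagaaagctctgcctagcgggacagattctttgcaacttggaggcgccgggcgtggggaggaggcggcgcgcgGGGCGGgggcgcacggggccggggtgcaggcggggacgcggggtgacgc
Fgf7: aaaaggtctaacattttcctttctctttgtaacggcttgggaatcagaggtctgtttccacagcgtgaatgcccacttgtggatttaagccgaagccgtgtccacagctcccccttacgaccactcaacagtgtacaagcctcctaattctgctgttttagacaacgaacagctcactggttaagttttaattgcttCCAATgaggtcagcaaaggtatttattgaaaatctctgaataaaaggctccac
Fgfr2: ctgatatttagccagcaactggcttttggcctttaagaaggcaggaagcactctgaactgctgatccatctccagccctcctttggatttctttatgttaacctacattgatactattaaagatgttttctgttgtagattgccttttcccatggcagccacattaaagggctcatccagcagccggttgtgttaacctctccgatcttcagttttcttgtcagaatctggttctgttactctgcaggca

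The letters searched were GGGCGG for the GC box, CCAAT for the CCAAT box, TATAAA for the TATA core, the run TATATA, ATGCAAAT for the octamer, TGANTCA for the AP-1 site and, by its name, the CArG box. The Fgf4 window held 2 GC boxes, 1 CCAAT box on the opposite strand (ATTGG) and 2 matches to TATATA that overlap each other, the nearer one ending 23 bases upstream of the start. The Fgf2 window held 1 GC box, the Fgf7 window 1 CCAAT box and the Fgfr2 window no match to these letters. Of the 32851 promoter windows in the table, 32.7% held a GC box, 33.9% a CCAAT box, 12.4% TATAAA, 5.25% TATATA, 1.60% the octamer, 6.75% the AP-1 site and 1.47% a CArG box. The Fgf4 and Fgf2 windows were rich in G and C (71.2% and 62.4%) and held 21 and 20 CpG. Those of Fgf7 and Fgfr2 had 43.6% and 44.0% G and C and 6 and 2 CpG, against medians of 52.4% and 6 over all windows. Windows of 7 members were in the table.

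The first comparison set the 4 pluripotent arrays against the 3 MEF arrays and asked which FGF genes distinguish the end state from the fibroblasts. Fgf4 rose 22.4-fold, while Fgf7 fell 31.9-fold, Fgfr2 11.1-fold and Fgf2 8.95-fold. Fgf10, Fgfr1 and Fgf5 also fell, by 2.37-fold, 1.79-fold and 1.48-fold. Fgf15, Fgf17 and Fgfr3 did not pass the test. In all, 1 of 10 members was higher and 6 were lower at an adjusted p under 0.05 in limma, where 30.1% of the 13044 genes were higher and 29.9% were lower. The median change of the members was -0.70 on the log2 scale, against 0.03 over all genes. Arrays of one state but of different genotype stood as replicates, so the spread includes genotype, and no label says which arrays come from separate cultures. With so many genes changed, a call by itself does not set a member apart. By absolute change Fgf7 ranked 42, Fgf4 82, Fgfr2 343 and Fgf2 489 of the 13044 genes.

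Fgf4, the FGF of the early embryo, lies at chr7:144861386-144865245. Its log2 signal was 10.56 in WT iPSC, 10.33 in flox/- iPSC, 10.52 in WT ESC and 9.87 in -/- ESC, against 5.68 in WT MEF, 5.80 in flox/- MEF and 6.01 in -/- MEF. The groups were far apart, and each MEF array lay below the array median. The mean was 10.32 ± 0.32 in pluripotent cells (SD, n = 4) and 5.83 ± 0.17 in MEF (SD, n = 3), a difference of 4.49 ± 0.19 (SE) with an adjusted p of 6.53e-06. Since the MEF signal was dim, the fold is limited by background.

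Under DOX the Fgf4 signal was 7.30, 8.84 and 10.42 in WT cells at days 4, 8 and 11, and 7.98 and 10.33 in flox/- cells at days 4 and 8. Every DOX array lay above every MEF array, and only the WT day 11 and flox/- day 8 arrays lay within the pluripotent range. As a share of the log2 change between MEF and iPSC of the same genotype, Fgf4 stood at 33.1%, 64.8% and 97.0% in WT cells at days 4, 8 and 11. It stood at 48.0% and 100.1% in flox/- cells at days 4 and 8.

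Fgf7, also called keratinocyte growth factor, lies at chr2:126034658-126091185. Its log2 signal was 7.15 in WT iPSC, 4.85 in flox/- iPSC, 6.19 in WT ESC and 5.51 in -/- ESC, against 11.03 in WT MEF, 10.85 in flox/- MEF and 10.88 in -/- MEF. The means were 5.92 ± 0.98 in pluripotent cells (SD, n = 4) and 10.92 ± 0.10 in MEF (SD, n = 3), so the groups stood apart and the pluripotent arrays spread more. The difference was -4.99 ± 0.49 (SE) with an adjusted p of 0.000147. The flox/- iPSC value lay close to the lower quartile of the array, 4.68, so background limits the fold there.

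Under DOX, Fgf7 had 8.17, 4.81 and 7.79 in WT cells at days 4, 8 and 11, and 5.96 and 4.79 in flox/- cells at days 4 and 8. All 5 arrays lay below all MEF arrays, and the WT day 4 and day 11 arrays were the highest of the DOX arrays. The WT day 8 array, the one from the earlier series, was the lowest of the 3 WT arrays, so the WT values did not run in one direction with time.

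Fgf2, a ligand of wide expression that supports many mesenchymal cells, lies at chr3:37348477-37410106. Its signal was 6.41 in WT iPSC, 6.02 in flox/- iPSC, 7.15 in WT ESC and 6.23 in -/- ESC, against 9.25 in WT MEF, 9.45 in flox/- MEF and 10.13 in -/- MEF. The groups did not overlap, with means of 6.45 ± 0.49 in pluripotent cells (SD, n = 4) and 9.61 ± 0.46 in MEF (SD, n = 3). The difference was -3.16 ± 0.31 (SE, adjusted p 0.000158). DOX arrays read 7.16, 6.47 and 7.38 in WT cells at days 4, 8 and 11, and 6.40 and 5.90 in flox/- cells at days 4 and 8. Most of the fall on the log2 scale was thus present at day 4: 73.6% of the change between MEF and iPSC in WT cells and 89.1% in flox/- cells. At day 8 the shares were 97.8% in WT and 103% in flox/- cells. The WT day 11 array stood at 66.0%, so the WT values did not run in one direction with time.

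Fgf10, a mesenchymal ligand of the same subfamily as Fgf7, had 6.51 in WT iPSC, 5.49 in flox/- iPSC, 6.93 in WT ESC and 5.98 in -/- ESC. It had 6.87 in WT MEF, 7.30 in flox/- MEF and 8.23 in -/- MEF. The WT ESC array lay above the WT MEF array, so the groups overlapped, and the difference was -1.24 ± 0.42 (SE, adjusted p 0.0346). The call was lost in 5 of the 14 alternative settings: when dim genes were kept (adjusted p 0.0541), and without the -/- MEF (0.111), flox/- MEF (0.0703), flox/- iPSC (0.0726) or -/- ESC array (0.0741). DOX arrays had 5.99, 5.12 and 5.82 in WT cells at days 4, 8 and 11, and 5.33 and 6.24 in flox/- cells at days 4 and 8. All 5 lay below all 3 MEF arrays.

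The other ligands were dim. Fgf5, known as a marker of the primed epiblast, had 5.55 to 5.83 on pluripotent arrays against 6.04 to 6.49 on MEF arrays, a difference of -0.57 ± 0.14 (SE, adjusted p 0.00993). It passed the filter through the -/- MEF array alone, at 6.49, so its call rests on a small difference around the array median. Fgf15, the mouse counterpart of the human enterohepatic hormone FGF19, had 5.39 to 6.10 on pluripotent arrays and 5.22 to 5.57 on MEF arrays (0.37 ± 0.18, SE, adjusted p 0.117). Its highest value was 7.18, on the flox/- day 4 array, while the other 4 DOX arrays had 5.48 to 6.21. Fgf17, of the Fgf8 subfamily of embryonic patterning ligands, had 5.96 to 6.50 on pluripotent arrays and 5.74 to 5.88 on MEF arrays. These ranges did not overlap, and the difference of 0.39 ± 0.15 (SE) missed the threshold at an adjusted p of 0.0517. It passed with the values as deposited (0.0378), in a fit over all 12 arrays (0.0373) and without the -/- ESC array (0.0246).

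**Figure D1:**
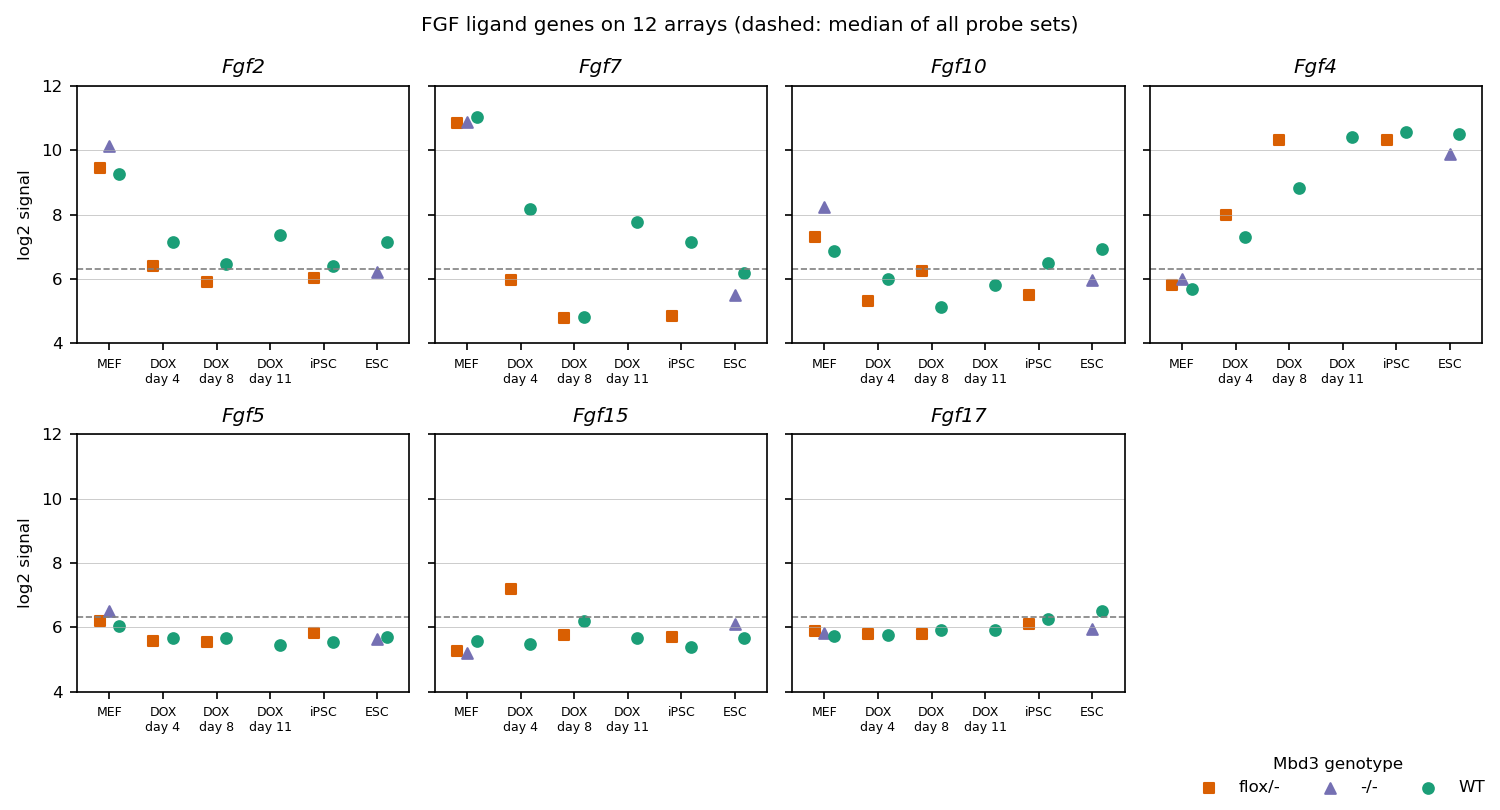
Log2 signal of the 7 ligand genes (vertical axis) by stage (horizontal axis), 1 point per array, with colour and shape for the Mbd3 genotype and a dashed line at the array median. Fgf4 climbed to 9.87 to 10.56 on pluripotent arrays, Fgf7 and Fgf2 lay below their MEF values on every other array, and Fgf5, Fgf15 and Fgf17 lay no higher than 6.50 apart from Fgf15 on the flox/- day 4 array.

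Among the receptors, Fgfr2 changed most. This gene, at chr7:130162451-130266808, encodes the receptor whose splice forms bind different sets of ligands, and the probe set gave 1 value for all forms. Its signal was 5.67 in WT iPSC, 5.91 in flox/- iPSC, 6.40 in WT ESC and 6.79 in -/- ESC, against 9.44 in WT MEF, 9.56 in flox/- MEF and 9.98 in -/- MEF. The groups stood apart, with means of 6.19 ± 0.50 in pluripotent cells (SD, n = 4) and 9.66 ± 0.29 in MEF (SD, n = 3) and a difference of -3.47 ± 0.28 (SE, adjusted p 7.34e-05). DOX arrays read 8.26, 5.57 and 8.26 in WT cells at days 4, 8 and 11, and 6.35 and 5.97 in flox/- cells at days 4 and 8. WT arrays at days 4 and 11 thus stood at 31.2% and 31.3% of the change between WT MEF and WT iPSC, whereas the WT day 8 array stood at 103%. In flox/- cells the shares were 88.0% at day 4 and 98.5% at day 8.

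Fgfr1, at chr8:25518759-25575718, encodes the receptor that is prominent in both fibroblasts and ESC. It had 10.21 in WT iPSC, 9.95 in flox/- iPSC, 10.18 in WT ESC and 10.02 in -/- ESC, against 10.92 in WT MEF, 11.01 in flox/- MEF and 10.87 in -/- MEF. The fall was small beside that of Fgfr2 but larger than the spread, at -0.84 ± 0.11 (SE, adjusted p 0.000568). In a fit over all 12 arrays the adjusted p was 0.0548. On DOX arrays it had 11.12, 9.62 and 10.69 in WT cells at days 4, 8 and 11, and 10.66 and 9.61 in flox/- cells at days 4 and 8. Both day 8 arrays lay below all 4 pluripotent arrays, and the WT day 4 array lay above all MEF arrays.

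Fgfr3, the receptor best known for its role in restraining bone growth, had 5.62 to 5.99 on pluripotent arrays and 5.96 to 6.57 on MEF arrays, ranges that just overlapped. The difference of -0.42 ± 0.17 (SE) missed the threshold (adjusted p 0.0652), and without the WT MEF array the adjusted p was 0.0331. The WT day 8 array had 7.84, the highest of the 12, while the other 4 DOX arrays had 5.64 to 6.36. That array came from the earlier series, and the part of its origin in this value was not tested.

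**Figure D2:**
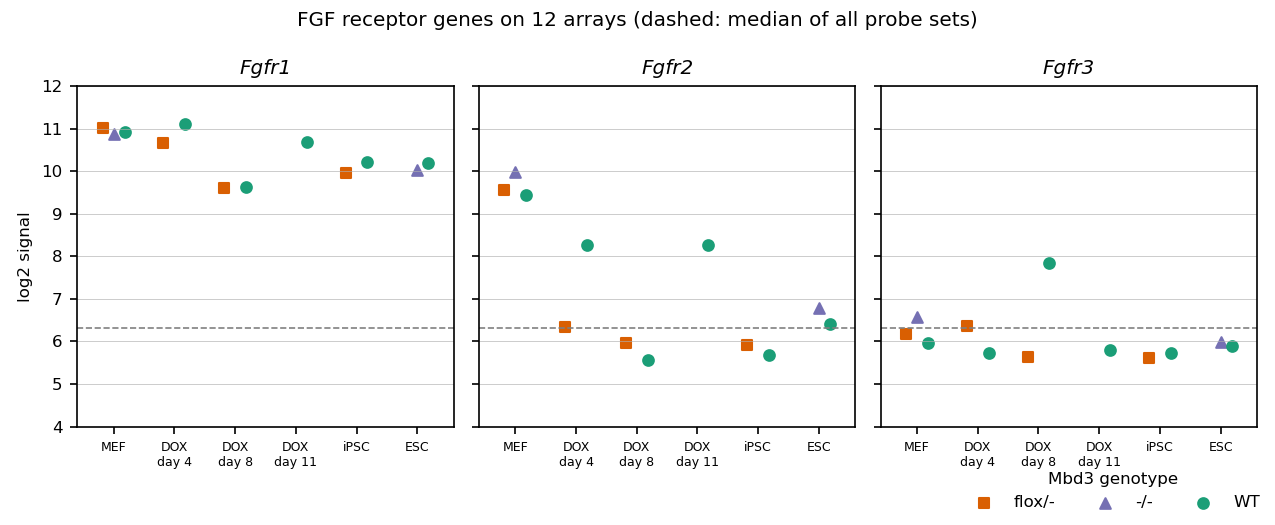
Log2 signal of the 3 receptor genes (vertical axis) by stage (horizontal axis), 1 point per array, with colour and shape for the Mbd3 genotype and a dashed line at the array median. Fgfr1 stayed between 9.61 and 11.12 on all arrays, Fgfr2 lay at 9.44 to 9.98 on MEF arrays and no higher than 6.79 on pluripotent arrays, and Fgfr3 lay near the median line apart from 7.84 on the WT day 8 array.

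The second comparison set the 5 DOX arrays against the 3 MEF arrays. Fgf4 rose 8.82-fold (3.14 ± 0.73, SE, adjusted p 0.0330). Fgf7 fell 24.5-fold (-4.62 ± 0.84, adjusted p 0.0175), Fgf2 7.74-fold (-2.95 ± 0.37, adjusted p 0.00710), Fgfr2 6.87-fold (-2.78 ± 0.68, adjusted p 0.0371), Fgf10 3.41-fold (-1.77 ± 0.37, adjusted p 0.0247) and Fgf5 1.58-fold (-0.66 ± 0.15, adjusted p 0.0299). These were 1 member higher and 5 lower, where 5.88% of genes were higher and 7.67% were lower. The median change was -0.63 over the members and 0.06 over all genes. Fgfr1 had a difference of -0.59 ± 0.37 (adjusted p 0.286), with its 5 DOX arrays on both sides of the MEF range. The MEF arrays are the same as in the first comparison, so the 2 sets of changes are not independent. Fgf2 was the call that held under all 15 alternative settings. With a single array left out, the number of members called was 1 without the flox/- MEF or the -/- MEF array, 2 without the WT MEF or the flox/- day 4 array and 3 without the WT day 11 array. Over all genes the calls also dropped, to 150 without the flox/- MEF, 402 without the -/- MEF, 414 without the WT MEF, 688 without the flox/- day 4 and 659 without the WT day 11 array, against 1768 with all arrays.

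At day 4, with 2 arrays against 3, Fgf2 fell 7.14-fold (-2.84 ± 0.36, SE, adjusted p 0.0376), Fgf7 fell 14.4-fold (-3.85 ± 0.64, adjusted p 0.0463) and Fgf4 rose 3.49-fold (1.80 ± 0.25, adjusted p 0.0385). This was 1 member higher and 2 lower, where 2.53% of genes were higher and 1.96% were lower, with medians of -0.40 over the members and 0.04 over all genes. Fgfr2 differed by -2.36 ± 0.58 (adjusted p 0.0688) and Fgf10 by -1.81 ± 0.45 (adjusted p 0.0699). The flox/- and WT day 4 arrays were far apart for both Fgfr2 and Fgf7. Without the WT array the changes were -3.31 for Fgfr2 (adjusted p 0.00684) and -4.96 for Fgf7 (adjusted p 0.00484), and without the flox/- array -1.40 (adjusted p 0.0971) and -2.75 (adjusted p 0.0330). With the WT, flox/- or -/- MEF array left out, 0 members and 0 of all genes were called. Without the WT day 4 array 5 members and 4015 genes were called, and without the flox/- day 4 array 1 member and 99 genes were, against 586 genes with all arrays.

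**Figure D3:**
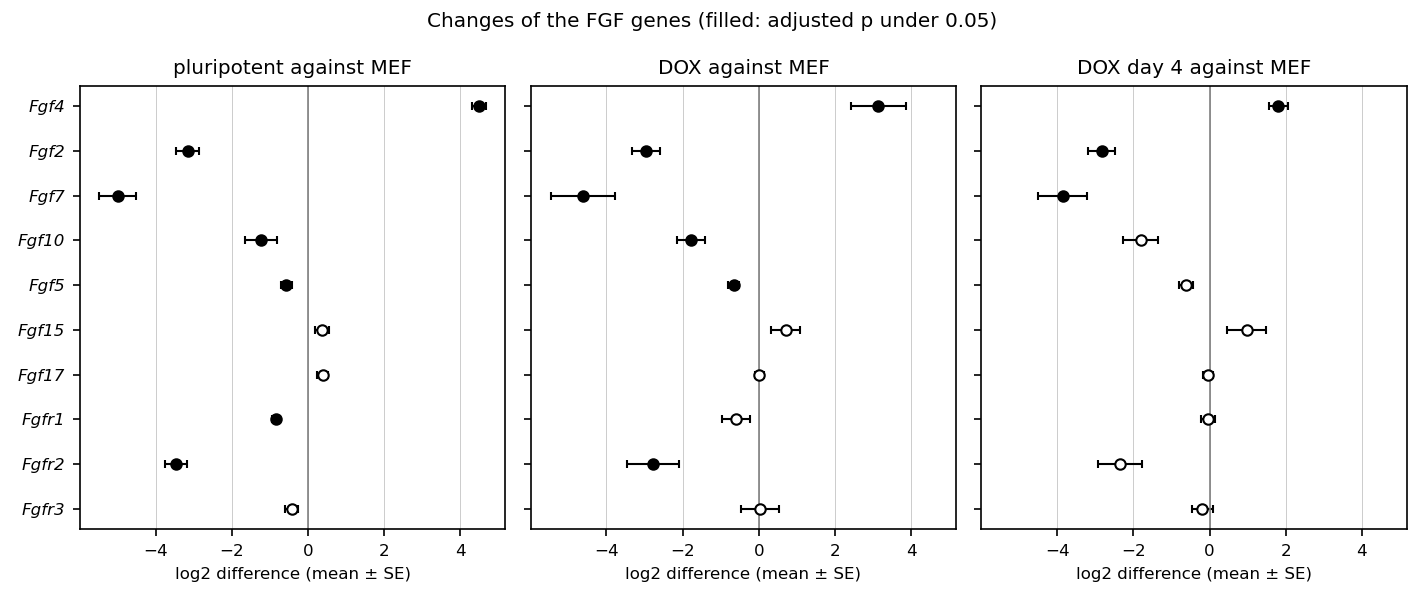
Log2 difference of each member (horizontal axis, mean ± SE) in 3 comparisons, from left to right pluripotent, all DOX and DOX day 4 arrays, each against MEF, with filled points for an adjusted p under 0.05. Fgf4 lies to the right of zero in each panel, at 4.49, 3.14 and 1.80, and Fgf7, Fgf2 and Fgfr2 lie to its left.

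DOX arrays were also set against pluripotent arrays. No member was called in limma, and 1 of 10 members, Fgf17, had an unadjusted p under 0.05, as had 2052 of the 13044 genes. Of all genes 0.00767% were called. Fgf4 differed by -1.35 ± 0.64 (SE, adjusted p 0.333), Fgfr2 by 0.69 ± 0.61 (adjusted p 0.551), Fgf7 by 0.38 ± 0.82 (adjusted p 0.813) and Fgf2 by 0.21 ± 0.34 (adjusted p 0.745). The DOX arrays span days 4 to 11, and the test does not show that the groups are alike.

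The fibroblast marker level moved with several members across the arrays. Fgf7 was 7.15 in WT iPSC, where the mean of the 9 fibroblast genes was 9.36, and 4.85 in flox/- iPSC, where it was 6.24. On DOX arrays the fibroblast mean was 10.89, 7.61 and 10.08 in WT cells at days 4, 8 and 11, and 8.81 and 6.17 in flox/- cells at days 4 and 8. The arrays with the highest fibroblast means among DOX arrays, WT day 4 and WT day 11, also had the highest Fgf7, Fgf2, Fgfr1 and Fgfr2. In whole cultures and on feeders, fewer fibroblasts and less of a transcript per fibroblast cannot be told apart, and the part of the fibroblast level in these values was not tested. Among the iPSC, Fgfr2 was 5.67 in WT and 5.91 in flox/- cells, with fibroblast means of 9.36 and 6.24. Both of these Fgfr2 values lay below the array median, where background limits what they can show. Fgf4 was 10.42 on the WT day 11 array, within the pluripotent range, and the fibroblast mean of that array was 10.08.

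**Figure D4:**
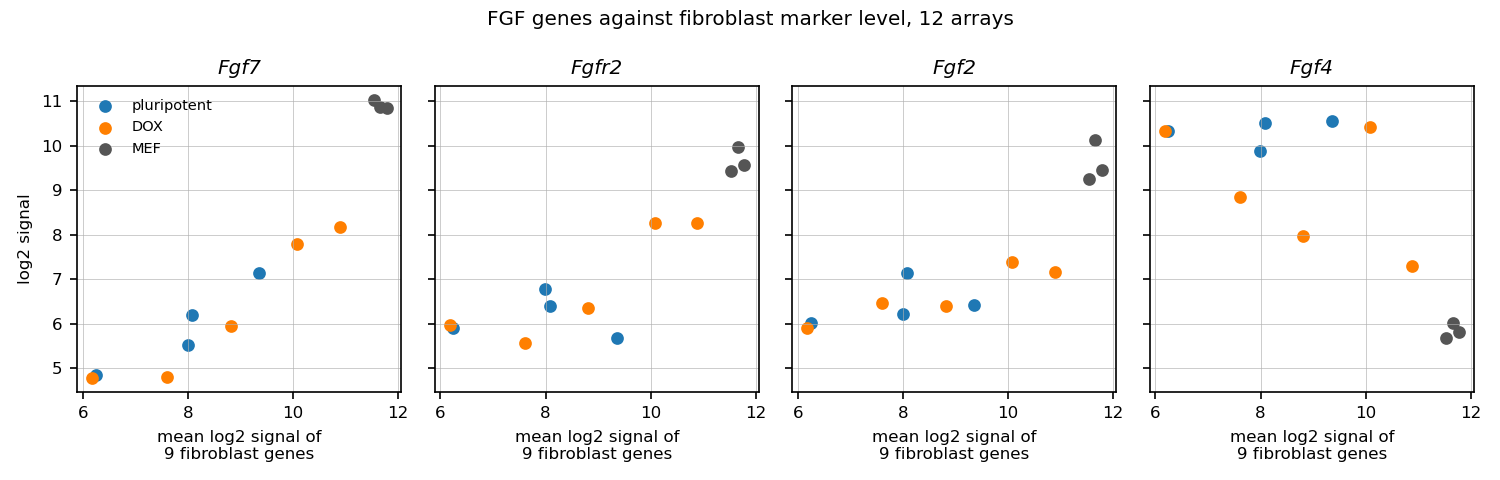
Log2 signal of Fgf7, Fgfr2, Fgf2 and Fgf4 (vertical axis) against the mean log2 signal of 9 fibroblast genes (horizontal axis), 1 point per array and coloured by state. Fgf7 is lowest, at 4.79, on the flox/- day 8 array, which has the lowest fibroblast mean, and exceeds 10 only on MEF arrays. Fgfr2 is lowest on the WT day 8 array at 5.57, and Fgf4 exceeds 10 both at a fibroblast mean of 6.17 and at one of 10.08.

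The effect of the Mbd3 genotype was examined with stage held fixed. Over the 4 stages that both genotypes have (8 arrays), no member was called between flox/- and WT cells in limma, 0 members and 852 of all genes had an unadjusted p under 0.05, and 0% of all genes were called. The largest member difference was that of Fgf7, -1.18 ± 0.50 (SE, adjusted p 0.693), which came from day 4 (-2.21) and iPSC (-2.30), with -0.18 in MEF and -0.02 at day 8. Fgf4 differed by 0.51 ± 0.32 (adjusted p 0.696), with 0.68 at day 4, 1.49 at day 8, 0.12 in MEF and -0.23 in iPSC. Fgfr2 was 6.35 in flox/- cells and 8.26 in WT cells at day 4, a difference of -1.92, while at the other stages flox/- cells were 0.13 to 0.40 higher. At day 4 the fibroblast mean was likewise lower in flox/- cells, 8.81 against 10.89 in WT cells. With 1 array per genotype and stage, genotype and culture cannot be told apart within a stage, and the test does not show that the genotypes are alike. At day 8 the WT array came from the earlier series and the flox/- array did not, so genotype and series cannot be told apart there either.

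The -/- genotype was compared with WT in a fit with stage and genotype over the 7 arrays taken without DOX. By the labels the WT MEF carry the OSKM transgene and the -/- MEF name none, so genotype and transgene cannot be told apart in MEF. In ESC the WT array came from the earlier series and the -/- array did not, so genotype and series cannot be told apart there. No member was called in limma, 1 of 10 members and 907 of all genes had an unadjusted p under 0.05, and 0% of all genes were called. That member was Fgfr2, at 0.49 ± 0.16 (SE, adjusted p 0.686), with 6.79 in -/- ESC against 6.40 in WT ESC and 9.98 in -/- MEF against 9.44 in WT MEF. Fgf2 was 0.88 higher in -/- MEF than in WT MEF and 0.92 lower in -/- ESC than in WT ESC. Fgf10 ran likewise, at 1.35 higher in -/- MEF and 0.95 lower in -/- ESC, so these genes had no common direction over both stages. Mbd3 itself was not called either, with 6.73 in -/- ESC and 9.31 in WT ESC. The test therefore does not show that the genotypes are alike.

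The iPSC and ESC values of the members were set side by side as means of 2 arrays each. The largest gap was that of Fgfr2, with a mean of 5.79 over the 2 iPSC arrays and 6.60 over the 2 ESC arrays. Fgf4 had 10.45 in iPSC and 10.20 in ESC, and Fgf7 had 5.998 in iPSC and 5.85 in ESC. The Fgf7 mean in iPSC came from unlike arrays, 7.15 in WT and 4.85 in flox/- cells. The remaining members differed by 0.48 or less, and no test was made because genotypes differ between the pairs.

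The other FGF pathway genes were taken from lists of 85 genes, 78 of them measured and 66 kept for testing. Of these 66, 9 were higher and 32 were lower in pluripotent cells than in MEF. In the DOX comparison 0 were higher and 8 were lower, where 5.88% of all 13044 genes were higher and 7.67% were lower. The counts of each list below are for pluripotent cells against MEF unless DOX is named. They stand beside the 30.1% of all 13044 genes that were higher and the 29.9% that were lower in pluripotent cells. The lists were chosen with earlier results of these data known, so their counts describe the arrays only.

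Of 15 other ligand genes, 7 were kept. Fgf11, an intracellular FGF homologue, rose 1.89-fold (0.92 ± 0.11, SE, adjusted p 0.000308), while Fgf18 fell 3.79-fold and Fgf9 fell 1.74-fold. Fgf9 passed the filter on 1 array alone, the -/- MEF at 6.40, where it was highest. Of 4 other receptors and co-receptors, 3 were kept. Fgfr4 rose 1.49-fold, with 5.85 to 6.43 on pluripotent arrays against 5.50 to 5.71 on MEF arrays, and it passed the filter through the flox/- iPSC array alone, where it was highest. Fgfrl1, a receptor that lacks the kinase domain, fell 3.24-fold (adjusted p 2.71e-05).

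Genes for heparan sulfate chains and their core proteins, which hold FGFs at their receptors, showed the most falls: 16 of 21 kept genes were lower and 0 were higher, with a median of -1.37. Hs6st2, a sulfotransferase that modifies the chains, fell 18.1-fold, with 6.15 on average in pluripotent cells and 10.32 in MEF (adjusted p 0.000131). The glypicans Gpc6 and Gpc3, core proteins bound to the cell membrane, fell 9.66-fold and 9.16-fold. In the DOX comparison 6 genes of this list fell, where 7.67% of all genes did, among them Gpc3 (-3.19, adjusted p 0.0253). Of the FLRT proteins, membrane proteins that bind FGF receptors, Flrt2 fell 11.1-fold, Flrt3 2.43-fold and Flrt1 1.37-fold. Fgfbp1, a secreted FGF carrier, was called higher at day 4 (2.34 ± 0.13, adjusted p 0.0174; adjusted p 0.0668 over all DOX arrays and 0.129 in pluripotent cells), with 7.002 and 6.90 on the flox/- and WT day 4 arrays against 4.56 to 4.66 on MEF arrays.

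Of 11 kept genes that carry the signal from the receptors, 2 were higher and 2 were lower. The docking protein gene Gab1 rose 4.76-fold (2.25 ± 0.23, adjusted p 0.000183), with 11.52 to 11.80 on pluripotent arrays and 8.99 to 9.99 on MEF arrays. Frs3, a gene for another docking protein, rose 1.31-fold, the exchange factor gene Sos2 fell 1.92-fold and the phosphatase gene Ptpn11 fell 1.80-fold.

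Feedback inhibitors and targets of the pathway moved in both directions: of 17 kept genes, 4 were higher and 8 were lower. The transcription factor genes Etv5 and Etv4 rose 5.70-fold (2.51 ± 0.17, adjusted p 3.76e-05) and 2.21-fold, and Il17rd, a membrane inhibitor of FGF signalling, rose 1.82-fold. Etv5 had 10.98 to 11.54 on pluripotent arrays and 8.65 to 8.91 on MEF arrays, which did not overlap. The early-response gene Egr1 fell 5.48-fold, the phosphatase gene Dusp4 3.44-fold and the Sprouty gene Spry1 3.23-fold. The Dusp4 groups overlapped, with 6.55 in WT MEF and 6.80 in WT ESC, while flox/- and -/- MEF had 8.64 and 8.82. Spry1 was also lower on DOX arrays (-2.20, adjusted p 0.0184). For the splicing of Fgfr2 into its epithelial form, Esrp2 rose 1.96-fold (adjusted p 0.00593), and its paralog Esrp1 differed by 1.23 ± 0.65 (adjusted p 0.137). All 6 macrophage genes were lower in the same comparison, and the part of blood cells in the falls of pathway genes was not tested.

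**Figure D5:**
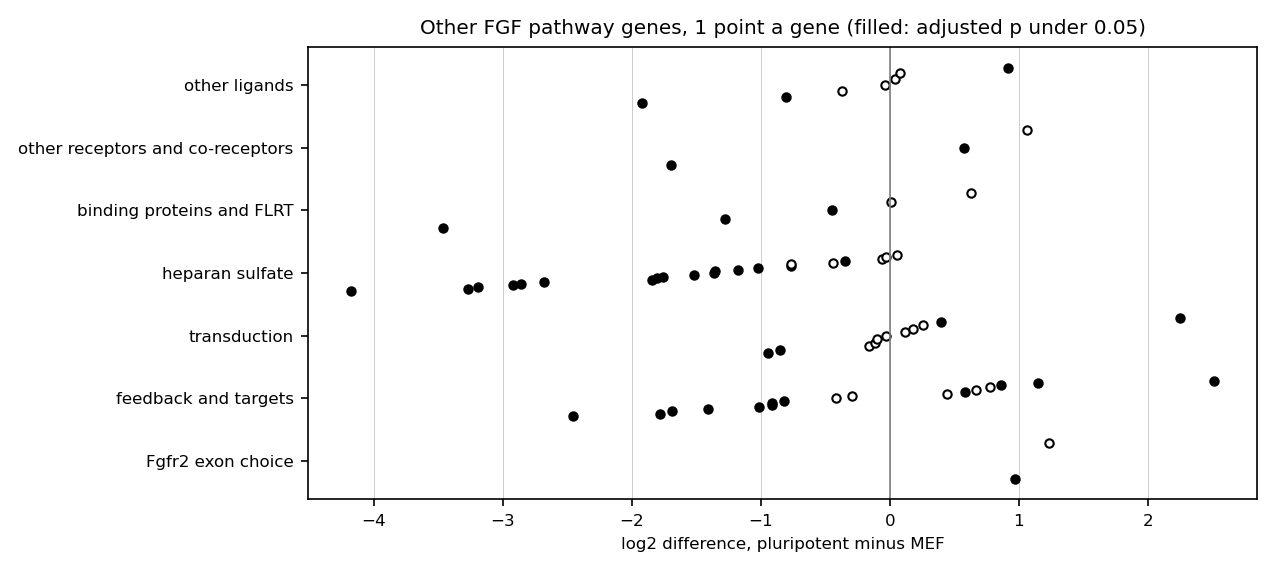
Log2 difference, pluripotent minus MEF (horizontal axis), of the 66 kept genes of the FGF pathway lists (rows), 1 point per gene and filled for an adjusted p under 0.05. In the heparan sulfate row 16 filled points lie left of zero and 0 lie right, while the row of feedback genes and targets has 8 on the left and 4 on the right.

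The members' patterns over the 12 arrays were compared with all kept genes by Pearson's r, given as a description since the arrays share states and feeders. The closest to Fgf4 were Zswim1 (r = 0.983), Trim71 (0.981) and Plekhf2 (0.981). Those closest to Fgf7 were Pdgfrl (0.986), Svep1 (0.985) and Mmp19 (0.981), and those closest to Fgf2 were Galnt18 (0.987), Gpr176 (0.987) and Prkar1b (0.983). Fgfr2 was most like Cavin2 (0.974), Bicc1 (0.966) and Mir145a (0.965), and Fgfr1 like Ogn (0.965), Col3a1 (0.962) and Tcf4 (0.960). Fgf10 had lower values, with Prg4 first at 0.912, and Fgf5 was closest to Fam124a (0.983). The likeness of the dim members rested on few arrays: Fgf15 and Cyp27b1 (0.937) both peaked on the flox/- day 4 array, Fgfr3, Pip5k1c (0.975) and Hrct1 (0.962) on the WT day 8 array, and Fgf17 and Qprt (0.962) on the WT ESC array. Among the members themselves, r was 0.948 for Fgf2 and Fgf7, 0.936 for Fgf7 and Fgfr2, 0.927 for Fgf2 and Fgfr2 and -0.824 for Fgf2 and Fgf4.

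On chromosome 7 Fgf4 lies between Fgf3 and Fgf15, with 18038 and 31287 bases between the annotated ends, followed by LTO1 and Ccnd1. Fgf3 stayed below the filter with a mean of 5.50 in pluripotent cells and 5.42 in MEF, and Fgf15 was not called. LTO1 fell 1.59-fold and Ccnd1, which encodes cyclin D1, fell 1.88-fold. Ano1, a chloride channel gene beyond Fgf3, had means of 5.78 in pluripotent cells and 6.55 in MEF (adjusted p 0.0808). Its mean on DOX arrays was 9.72, a difference of 3.17 from MEF (adjusted p 0.0547), close to the 3.14 of Fgf4. Fgf2os, an antisense gene that overlaps Fgf2, was not kept, with means of 4.82 in pluripotent cells and 4.89 in MEF. Over the 10 members, the 2 nearest genes on each side gave 40 positions and 38 distinct genes, of which 27 positions were tested, 7 higher and 8 lower in pluripotent cells, near the 30.1% and 29.9% of all genes. These positions include the members Fgf4, counted as higher, and Fgf15, and LTO1 was counted as lower beside each of them.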

How the data were processed

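RNA of 12 mouse samples was measured on 12 Affymetrix whole-transcript gene arrays. Per the labels' protocols, RNA was extracted with TRIZOL and labelled with biotin by a 3′ IVT kit. The authors deposited log2 values for 35512 probe sets, from 3.11 to 13.99. The summary and normalization methods are not given in the sources used here. Quantile normalization was applied, since array medians lay 0.122 apart. Of the probe sets, 21789 had 1 gene symbol in the platform annotation, 1621 had several and 12102 were not listed. Probe sets with several symbols or none were left out. Of 999 genes with several probe sets, the one with the highest mean was used, and genes above the array median on at least 1 array were kept.

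The 6 comparisons were fitted in R 4.3.3 (packages limma 3.58.1 and data.table, version 1.17.8), and p-values were adjusted by the Benjamini-Hochberg method over all 13044 kept genes. Calls used an adjusted p under 0.05. The comparisons were pluripotent, all DOX and DOX day 4 arrays against MEF, DOX against pluripotent arrays, flox/- against WT with stage as a block (8 arrays), and -/- against WT with stage and genotype as terms (7 arrays). The fits were tested on simulated data with the same spread for every gene and array. In the real data the spread differed between states, which the simulation did not cover. Errors are standard errors (SE) of the fit or standard deviations (SD) over arrays. Arrays have no read depth, and their number limits the precision. As no label ties arrays to separate cultures, p-values measure the spread between these arrays.

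The members and gene lists were chosen with earlier results of these data known. All 10 members are named with their values. From each pathway list the text names the 3 called genes with the largest change in each direction between pluripotent cells and MEF, and for each likeness the 3 genes with the highest Pearson's r were found. Other named genes were chosen after their values were seen: Esrp1, Fgfbp1, the neighbours and the DOX values of Gpc3 and Spry1. Alternatives were the deposited values, other filters, the mean of probe sets, an intensity trend, 1 fit over all arrays, leaving out the arrays of the earlier series and leaving out each array in turn. In flox/- against WT a left-out array took its partner of the same stage with it. Python 3.11.15, pandas 2.3.3 and matplotlib 3.10.9 were used for promoters and figures.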

Additional observations from a re-analysis of the deposited data

Results flagged for a closer look

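Fgf17 was the only gene of the 10 whose flox/- and WT DOX arrays lay on opposite sides of their own MEF array. Each DOX array was set against the MEF array of its own genotype, and both flox/- arrays lay below it while all 3 WT arrays lay above it. The differences were -0.093 and -0.079 in flox/- cells at days 4 and 8, and 0.020, 0.175 and 0.157 in WT cells at days 4, 8 and 11. The flox/- mean minus the WT mean of these differences was -0.204 on the log2 scale, which was not tested. The flox/- and WT MEF arrays that served as reference themselves differed by 0.136. The values were all dim, at 5.74 to 5.92 on MEF and DOX arrays. In the 20 groups of 4 or 5 arrays examined, no array stood out as an outlier, where chance alone would mark about 1 in 20.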

How the results depend on the processing

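In pluripotent cells against MEF, 6 to 8 members were called over 14 alternatives, and Fgf2, Fgf4, Fgf7 and Fgfr2 were called in each. In DOX against MEF the count of 6 became 1 to 6 when single arrays were left out, and at day 4 the count of 3 became 0 to 5. These settings have fewer arrays, and where 1 day 4 array is left it is assumed to vary like the others. Over all genes the calls were 1768 in DOX against MEF, with 150 to 3561 under the alternatives, and 586 at day 4, with 0 to 4015. The counts of 0 in DOX against pluripotent, flox/- against WT and -/- against WT held under 16, 14 and 13 alternatives, although 0 to 1315 genes, against 1 as reported, were called in the first of these. Such counts of 0 do not show that the groups are alike. No called member changed direction. In flox/- against WT, leaving out 1 array also took its partner of the same stage out of the fit. Both arrays of a stage thus gave the same fit, and so did leaving out the earlier series for day 8. Its alternatives were therefore not all distinct. Members that were not called changed sign when single arrays were left out, over these ranges of log2 change. In DOX against MEF, Fgf17 ran from -0.017 to 0.051 and Fgfr3 from -0.35 to 0.21. At day 4, Fgfr1 ran from -0.27 to 0.18 and Fgfr3 from -0.50 to 0.13. In DOX against pluripotent, Fgf7 ran from -0.091 to 0.78. In flox/- against WT, Fgf5 ran from -0.0097 to 0.12, Fgf10 from -0.41 to 0.30, Fgf15 from -0.15 to 0.57, Fgf17 from -0.084 to 0.014, Fgfr2 from -0.52 to 0.25 and Fgfr3 from -0.71 to 0.24. In -/- against WT, Fgf2 ran from -0.92 to 0.73, Fgf4 from -0.64 to 0.24, Fgf5 from -0.075 to 0.48, Fgf10 from -0.95 to 0.99, Fgf15 from -0.20 to 0.43 and Fgf17 from -0.55 to 0.0062. Without the arrays of the earlier series the values that changed sign were -0.0023 for Fgf17 and -0.35 for Fgfr3 in DOX against MEF, 0.00086 for Fgf17 and 0.24 for Fgfr3 in flox/- against WT, and 0.73 for Fgf2, 0.24 for Fgf4, -0.20 for Fgf15 and 0.0062 for Fgf17 in -/- against WT; the cause was not tested. Fgf5, Fgf15 and Fgf17 were not tested under the stricter filter. Signal below the array median limits the folds of Fgf4, Fgf7, Fgfr2, Fgf2, Fgf10 and the dim ligands. Stage was a block in flox/- against WT, and no block by replicate was made since each genotype and stage has 1 array.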
